A study of Macaca fascicularis with 6 samples.

Results

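Metallothioneins and the genes that carry zinc into and out of cells were followed from cynomolgus monkey iPS cells, through the cartilage organoids made from them, to those organoids after transplantation and to the native tissues of the joint. The group holds 5 of the 13950 genes in one deposited matrix and 5 of the 14020 genes in the other. *MT1E* was chosen by its measured level in these data, where it rose from organoids before transplantation to organoids after it. The other genes were taken by name: every listed metallothionein whose symbol starts with MT1 or MT2, which added *MT2*, and *MTF1*, *SLC30A1* and *SLC39A14*. *MT3* is in the rule but is not among the listed symbols. *MT4*, a metallothionein outside the rule, had 0 reads in the 320 cells of each sample of the smaller matrix, a count for which the 3-count limit is 0.938% of cells with a read and the exact binomial upper limit 1.15%, and 13 and 8 reads in the 2500 cyiPSC cells and the 3527 pre-transplant cells of the larger matrix. *MT1E* and *MT2* therefore carry the metallothionein signal described here.

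Metallothioneins are small, cysteine-rich proteins that bind zinc and copper and release zinc to other proteins. Their genes, and that of the zinc exporter *SLC30A1* (ZnT1), are switched on when free zinc binds the transcription factor MTF1, and metallothionein genes also answer to glucocorticoids and to oxidative stress. *SLC39A14* (ZIP14) and *SLC39A8* (ZIP8) are importers that bring zinc, iron and manganese into the cell, and in cartilage the ZIP8, MTF1 and metallothionein axis is known from work on matrix-degrading enzymes in osteoarthritis.

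The 5 samples were cyiPSC (undifferentiated iPS cells carrying an EGFP reporter), pre-transplant cyiPS-Cart (cartilage organoids grown from them), post-transplant cyiPS-Cart (allogeneic organoids kept for 4 months in chondral defects of the knee), cyAC (intact articular cartilage) and cyFT (fibrous tissue from defects that received nothing). The host monkeys were 3 to 4 years old and wild type. The label of the post-transplant sample gives that wild-type genotype, whereas the study describes the transplanted cells as made from EGFP-expressing donor iPS cells. Organoids and joint tissues were digested with Liberase, and the labels' protocol, worded for human organoids, gives organoids before implantation a chondrogenic medium with ascorbic acid, an insulin-transferrin-selenium supplement and growth factors during that step, where cartilage and organoids after implantation had RPMI-1640. cyiPSC and pre-transplant cells shared 1 of the 3 libraries, cyAC and cyFT cells shared another, and post-transplant cells were alone in the last, so that transplantation, library and digestion medium cannot be told apart. Every condition is 1 sample, no test was possible, and all intervals are 95% intervals that cover counting error only, since the counts are taken as reads, for which the sources used here name no molecular identifiers, and such reads are not independent molecules.

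Median reads per cell ranged from 27499.5 in cyFT to 143075 in cyiPSC, and the 4 samples of the smaller matrix had been reduced to 320 cells each. Of the 320 pre-transplant cells there, 300 are also in the larger matrix, and between 0 and 4 cell numbers were shared by any pair of libraries. The 6 chondrocyte markers summed to 68.3 CPM (reads per 1000000 reads of the sample) in cyiPSC and to between 30819 and 74208 CPM in the other samples, and the 5 listed pluripotency markers summed to 359 CPM in cyiPSC and to between 1.24 and 7.71 CPM elsewhere. The 6 listed pan-immune markers summed to 527 CPM in cyFT against at most 26.2 CPM elsewhere. The 6 fibroblast markers summed to 23526 CPM in the 320 pre-transplant cells, 78545 CPM in post-transplant cells, 15864 CPM in cyAC and 51893 CPM in cyFT. Their sum was therefore highest in post-transplant cells, above the fibrous tissue, and did not set cyFT apart. *COL1A1*, the study's marker of fibrous tissue, did. It was at 18192 CPM with reads in 63.4% of cyFT cells, against 10168 CPM and 16.9% in post-transplant cells. In cyAC it was at 1196 CPM and 5.94%. *PDGFRA* was also higher in cyFT than in post-transplant cells, at 13.5 against 6.23 CPM. *COL1A2*, *COL3A1*, *DCN* and *LUM* were higher in post-transplant cells than in cyFT. The chondrocyte markers had reads in every cartilage sample.

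Metallothionein reads were scarce in cultured cells and abundant in every sample taken from a joint. *MT1E* and *MT2* together made up 154 CPM in cyiPSC, 284 CPM in the 3527 pre-transplant cells and 270 CPM in the 320 pre-transplant cells, against 4045.5 CPM in post-transplant cyiPS-Cart, 4811 CPM in cyAC and 4188 CPM in cyFT. The organoid thus moved from a level close to that of its culture relatives to one close to that of native cartilage, a 15.0-fold rise (14.6 to 15.4), which is a description, since *MT1E* was chosen for its own rise in this comparison and supplies most of the sum's. Its summed level after transplantation was still 1.19-fold below that of cyAC (1.18 to 1.20).

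**Figure D1:**
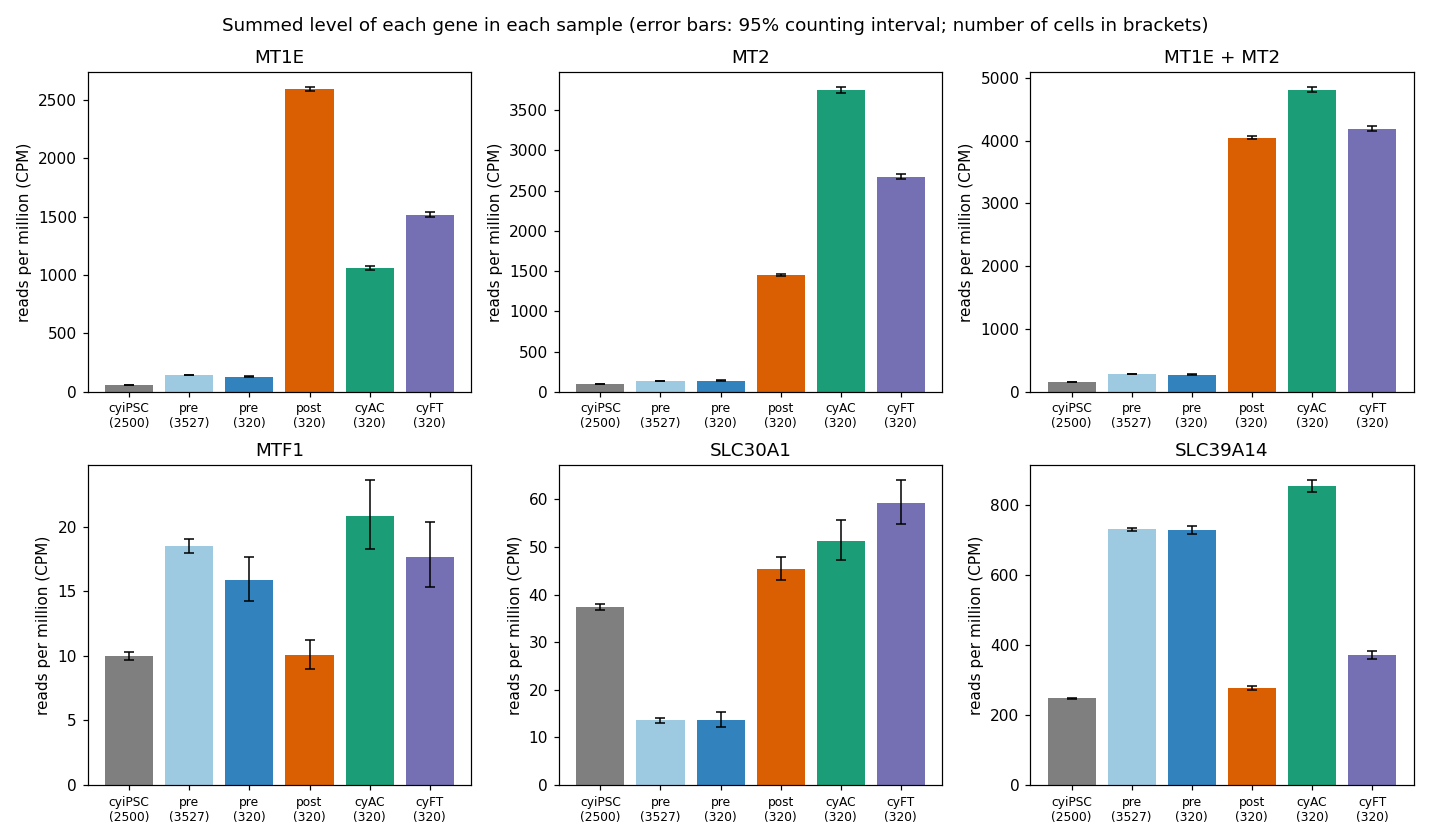
Summed level of each gene in CPM (y axis, from 0) in each sample (x axis, with the number of cells), with 95% counting intervals as error bars and each condition measured once. *MT1E*, *MT2* and their sum stand high in post-transplant, cyAC and cyFT cells, whereas *SLC39A14* is high in pre-transplant (730 CPM) and cyAC cells (855 CPM) and lower in post-transplant cells (277 CPM).

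*MT1E*, the gene by which the group was found, was at 56.4 CPM in cyiPSC, 145 CPM and 131 CPM in the larger and smaller sets of pre-transplant cells, 2592 CPM in post-transplant cyiPS-Cart, 1060 CPM in cyAC and 1516 CPM in cyFT. Over all cells, post-transplant cyiPS-Cart was the highest of all samples, 19.8-fold (19.1 to 20.6) above the pre-transplant organoid and 2.44-fold (2.399 to 2.491) above cyAC. At equal depth, 58.9% of pre-transplant and 91.6% of post-transplant cells held at least 1 *MT1E* read, compared with 88.6% in cyAC and 88.5% in cyFT.

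*MT2*, the other listed metallothionein, followed a different order. It was at 97.5 CPM in cyiPSC, 139 CPM in both sets of pre-transplant cells, 1454 CPM in post-transplant cyiPS-Cart, 3751 CPM in cyAC and 2672 CPM in cyFT. The organoid gained 10.4-fold (10.1 to 10.8) on transplantation but ended 2.58-fold (2.55 to 2.61) below cyAC. At equal depth 76.9% of post-transplant cells had an *MT2* read, fewer than the 98.4% of cyAC and 97.2% of cyFT cells and more than the 45.8% of pre-transplant cells.

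The sum of the metallothionein reads was therefore alike in transplant and native cartilage while its make-up was opposite. Since *MT1E* was chosen for its rise after transplantation, its larger share in post-transplant cells is a description. *MT1E* took 64.1% of the reads of both genes in post-transplant cells (63.8 to 64.3), 22.0% in cyAC (21.7 to 22.4) and 36.2% in cyFT (35.8 to 36.6). Before transplantation the share was 48.4% in the 320 cells and 51.2% in the 3527 cells, and in cyiPSC it was 36.7%. These are shares of the deposited counts, taken here as reads, and how the aligner split reads between the 2 genes and near-identical relatives was not tested. The study describes 1 assignment for all samples.

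Counted cell by cell, the same contrast appears again, which is no separate support because the cells of a sample share a library. Among cells with at least 20 metallothionein reads, *MT1E* held the larger part in 223 of 271 post-transplant cells (82.3%), in 29 of 247 cyAC cells (11.7%) and in 46 of 183 cyFT cells (25.1%). The median cell had an *MT1E* share of 69.6% after transplantation and 21.2% in cyAC, with 10th to 90th percentiles of 39.4% to 97.3% and 3.42% to 53.1% that overlap. The mix also changed with the level: below the median metallothionein level of its own sample, a cell's *MT1E* share was higher in post-transplant cells (71.3% against 63.5% above it) and in cyAC (31.4% against 21.2%), and nearly equal in cyFT (35.6% against 36.2%). Below and above the median alike, post-transplant cells had the larger *MT1E* share.

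**Figure D2:**
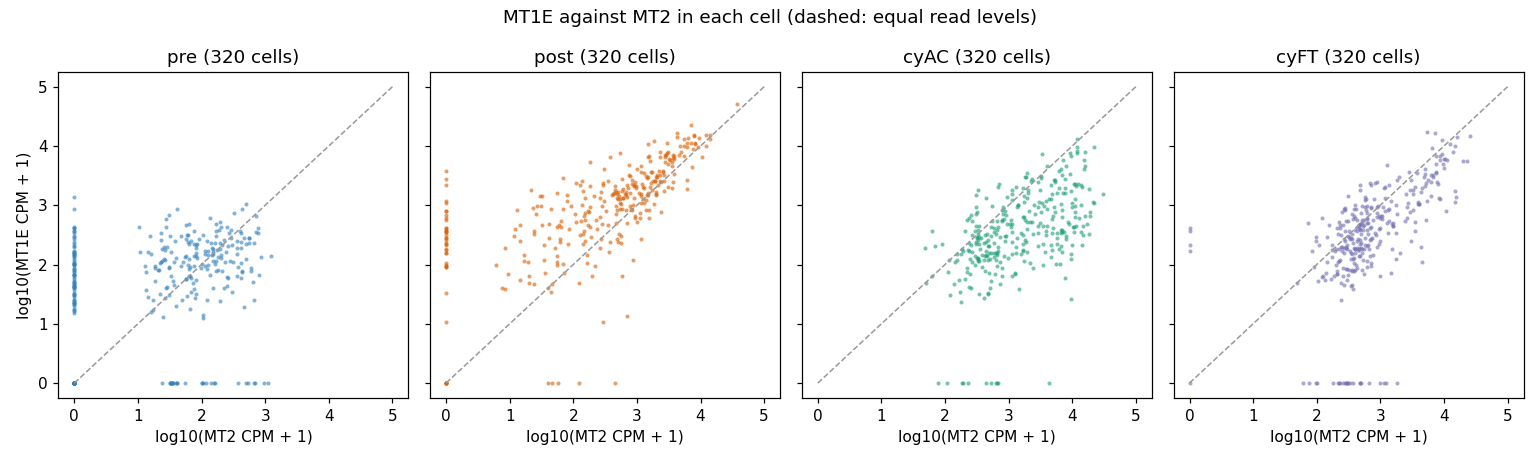
*MT1E* against *MT2* in each of the 320 cells of a sample, both as log10(CPM + 1), with a dashed line where both genes have equal CPM. Most post-transplant cells with reads lie above the line and most cyAC cells below it, and in pre-transplant cells many points sit on an axis because 1 gene had no read (both genes were read in 58.1% of them, against 86.3% of post-transplant and 96.6% of cyAC cells).

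Across cells the 2 genes moved together more closely in joint tissue than in culture. Pearson's r between their log2(CPM + 1) values was 0.25 in cyiPSC (2500 cells) and 0.31 in the 3527 pre-transplant cells, and among the samples of 320 cells it was 0.28 before transplantation, 0.64 after it, 0.52 in cyAC and 0.54 in cyFT. The cells of a sample share a library, and low counts in the cultured samples leave many zeros, so these values are descriptions only.

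Individual cells differed widely. In post-transplant cyiPS-Cart the metallothionein level of a cell ran from 0 to 89099 CPM with a median of 1766 CPM, in cyAC from 77.2 to 32138 CPM with a median of 1954 CPM, and in cyFT from 0 to 40589 CPM with a median of 981 CPM. Pre-transplant cells reached 1543 CPM at most in the set of 320, with a median of 162 CPM, so the median post-transplant cell stood above every one of these 320 while the lower post-transplant cells overlapped with them. Among the 3527 pre-transplant cells of the larger matrix the highest reached 4629 CPM, above that median, with a median cell at 180 CPM. Cells over 1000 CPM were 3.44% of the pre-transplant, 60.6% of the post-transplant, 63.8% of the cyAC and 48.8% of the cyFT cells. The tenth of cells with the most metallothionein reads held 57.9% of these reads in cyiPSC, 36.3% and 31.9% in the larger and smaller pre-transplant sets, 46.6% after transplantation, 40.9% in cyAC and 59.1% in cyFT.

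**Figure D3:**
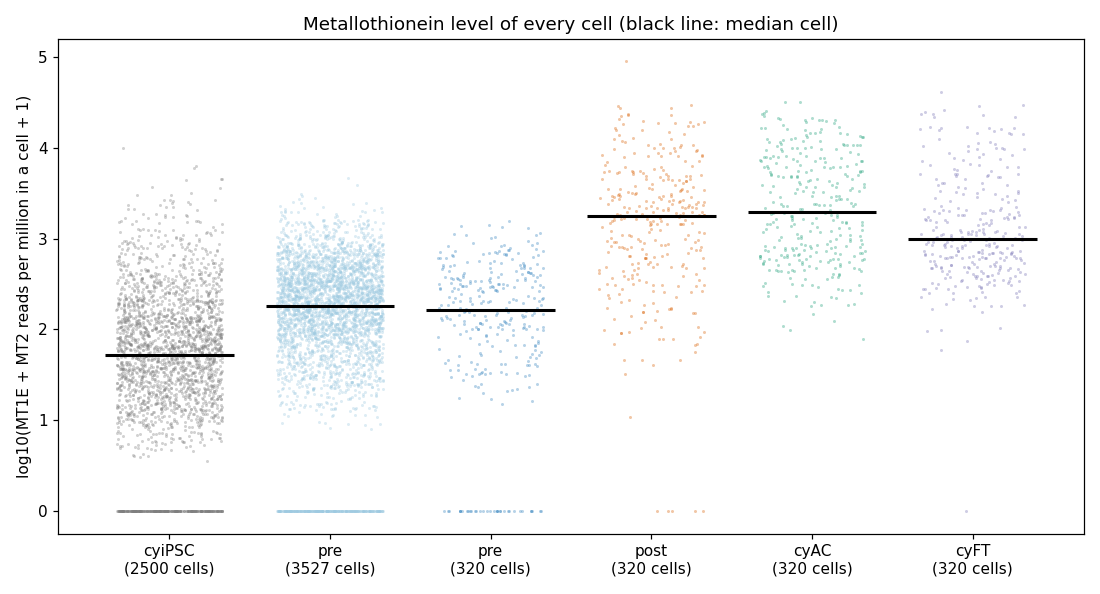
Metallothionein level of every cell, as log10(*MT1E* + *MT2* CPM + 1) on the y axis, by sample on the x axis, with the median cell as a black line. The medians of post-transplant, cyAC and cyFT cells (1766, 1954 and 981 CPM) stand above those of cyiPSC (50.6 CPM) and of both sets of pre-transplant cells (180 and 162 CPM), while the clouds of points overlap.

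In cyFT most metallothionein reads lay in a minority of cells. Its 84 cells with *COL2A1* reads and no *COL1A1* reads, the collagen of cartilage, were 26.3% of the cells and held 83.3% of the metallothionein reads. Their level was 8628 CPM (8542 to 8714), 7.88-fold (7.64 to 8.12) above the 1095 CPM of the 170 cells with *COL1A1* reads and no *COL2A1* reads, the pattern of fibrous tissue. The 33 cells with reads of both collagens were at 1367 CPM and the 33 with neither at 1297 CPM, so that cells with *COL2A1* reads were not high where *COL1A1* reads stood beside them. The median cell was at 6503 CPM in the *COL2A1*-alone and 660 CPM in the *COL1A1*-alone class. The *COL2A1*-alone cells were also read more deeply, with a median of 47802.5 against 21830 reads per cell. Both genes took part, *MT1E* at 3065 against 447 CPM and *MT2* at 5563 against 648 CPM.

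*SLC30A1* and *SLC39A14* followed the same classes in cyFT. *SLC30A1* was at 127 CPM in the *COL2A1*-alone cells and 14.6 CPM in the *COL1A1*-alone cells, 8.76-fold (6.74 to 11.5), and at equal depth it was read in 36.9% against 6.94% of them. *SLC39A14* was at 543 against 262 CPM, and *MTF1* at 23.7 against 7.85 CPM. Every member was thus higher in *COL2A1*-alone than in *COL1A1*-alone cells. *MTF1* was higher still in the 33 cells with neither collagen, at 46.1 CPM (34.4 to 60.4). It was lowest in the 33 cells with both, at 3.48 CPM (0.949 to 8.92). The 16 cyFT cells with at least 3 pan-immune markers, 5.00% of the sample, held 57.0 CPM of *MTF1* and 1063 CPM of metallothionein reads, the latter close to the *COL1A1*-alone cells, and all 15 of them that reached the common depth kept a read of these genes. No cell type of these samples is known to lack metallothionein, so the part of free RNA in such low levels was not tested.

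In every other sample made into cartilage or taken from it, *COL2A1*-alone cells were also above *COL1A1*-alone cells. In post-transplant cyiPS-Cart, 265 *COL2A1*-alone cells were at 4376 CPM, 47 cells with both collagens at 2897 CPM and 7 *COL1A1*-alone cells at 319 CPM. In cyAC the 276 *COL2A1*-alone cells were at 5164 CPM and the 16 *COL1A1*-alone cells at 2671 CPM, while the 3 cells with both collagens were at 6792 CPM in sum but at 657 CPM in their median cell, below the medians of *COL2A1*-alone and *COL1A1*-alone cells (2326 and 1389 CPM). *MTF1* did not follow this order in cyAC, at 20.4 CPM in *COL2A1*-alone and 38.3 CPM in *COL1A1*-alone cells. Before transplantation the classes lay closer together, at 299 CPM in 2588 *COL2A1*-alone cells and 174 CPM in 254 *COL1A1*-alone cells of the larger matrix. Counts of both collagens had been set to 0 below a level by the authors' background correction, so a cell without reads of a collagen may hold a little of it.

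**Figure D4:**
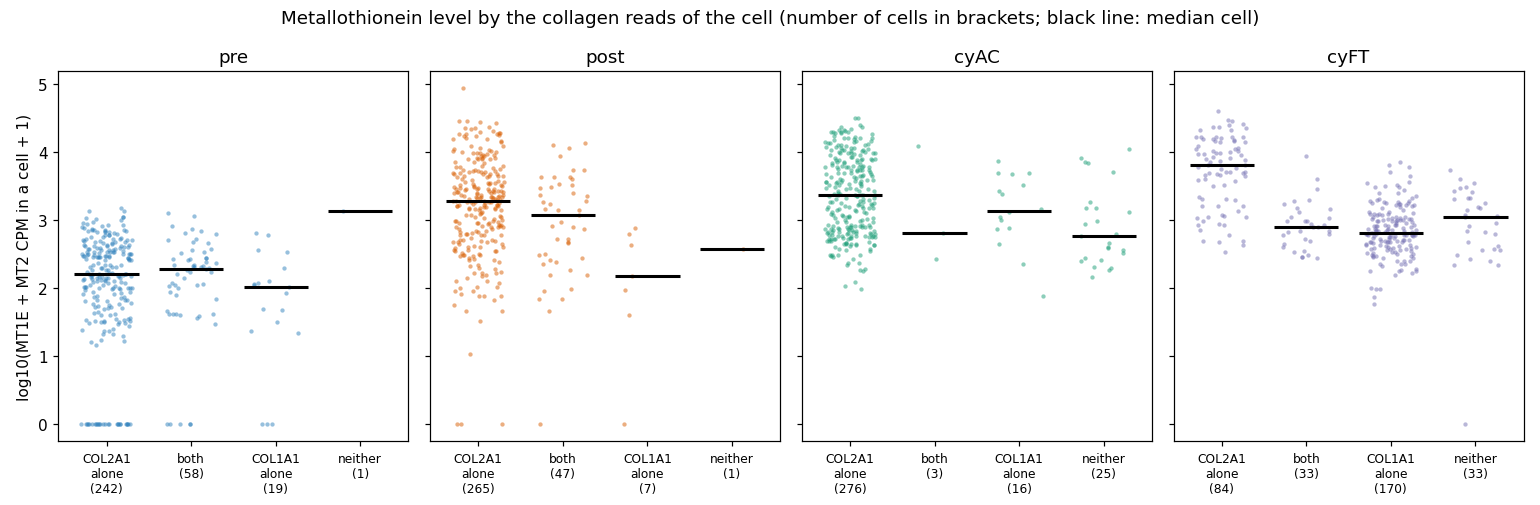
Metallothionein level of each cell, as log10(*MT1E* + *MT2* CPM + 1), by the collagen reads it holds, in the 4 samples of 320 cells, with the number of cells of a class in brackets and the median cell as a black line. In cyFT the *COL2A1*-alone cells (median 6503 CPM) stand above the *COL1A1*-alone cells (660 CPM), and in cyAC most cells are of the first class.

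When only *COL2A1*-alone cells were compared, the order of the native tissues turned. Over all cells cyAC was 1.15-fold (1.13 to 1.16) above cyFT, whereas *COL2A1*-alone cells of cyFT, at 8628 CPM, were 1.67-fold above those of cyAC. The rise of the organoid stayed at 15.7-fold within this class, from 279 to 4376 CPM, and post-transplant cells stayed 1.18-fold below those of cyAC. The *MT1E* share kept its order as well, at 63.3% in post-transplant, 22.5% in cyAC and 35.5% in cyFT cells of this class. The level of *MT1E* did not, as cyFT cells of this class, at 3065 CPM, stood above post-transplant ones, at 2770 CPM. Cells were also split by reads of *PRG4* (lubricin, the joint lubricant). With and without them the metallothionein sum was 254 and 291 CPM in the 3527 pre-transplant cells of the larger matrix, 297 and 264 CPM in the 320 of the smaller one, where the order was opposite, and 4127 and 3773 CPM in post-transplant cells. The gap was wider in the native tissues, at 4867 CPM in 311 cells against 910 CPM in 9 cells of cyAC and 4386 CPM in 279 cells against 1096 CPM in 41 cells of cyFT, where cells without *PRG4* reads were also read less deeply (medians of 17552 against 30421 reads in cyAC and 15648 against 30224 in cyFT).

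*SLC30A1*, the exporter that lowers cytosolic zinc at the plasma membrane, rose with the metallothioneins on transplantation but not on differentiation. It was at 37.4 CPM in cyiPSC, 13.6 and 13.8 CPM in the larger and smaller sets of pre-transplant cells, 45.5 CPM after transplantation, 51.3 CPM in cyAC and 59.3 CPM in cyFT. The post-transplant level was 3.30-fold (2.91 to 3.76) above the pre-transplant one and 1.13-fold (1.02 to 1.24) below cyAC. At equal depth, 8.15% of pre-transplant, 18.1% of post-transplant, 17.2% of cyAC and 16.0% of cyFT cells had a read, so most cells of each sample had none. Across cells, r with the metallothionein sum was 0.45 in cyFT, 0.21 in post-transplant and 0.10 in cyAC cells and 0.02 in the 320 pre-transplant cells.

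*SLC39A14*, an importer, went the other way. It was at 248 CPM in cyiPSC, 731 and 730 CPM in the larger and smaller sets of pre-transplant cells, 277 CPM after transplantation, 855 CPM in cyAC and 371 CPM in cyFT. It rose 2.95-fold (2.93 to 2.97) from iPS cells to organoid, then fell 2.63-fold (2.56 to 2.71) on transplantation and ended 3.08-fold (3.00 to 3.17) below cyAC. At equal depth 98.1% of pre-transplant, 67.2% of post-transplant and 92.9% of cyAC cells held a read. Post-transplant cyiPS-Cart and cyAC thus had alike metallothionein sums with unlike *SLC39A14* levels.

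*MTF1*, the zinc-sensing transcription factor, was low throughout. It rose 1.86-fold (1.78 to 1.94) from cyiPSC to organoid, as the metallothioneins did, but was lower after transplantation, when they were higher. It was at 9.95 CPM in cyiPSC, 18.5 and 15.9 CPM in the pre-transplant sets, 10.0 CPM after transplantation, 20.8 CPM in cyAC and 17.7 CPM in cyFT. The post-transplant level was 1.58-fold (1.35 to 1.85) below the pre-transplant and 2.07-fold (1.74 to 2.46) below the cyAC level. Its 95% interval in cyAC, 18.3 to 23.6 CPM, overlapped with that in cyFT, 15.3 to 20.3 CPM. Read levels of *MTF1* say nothing of the zinc bound to its protein.

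Set against all genes, the members moved as follows, counting those that differed by at least 2-fold in CPM + 1 with the minimum set at 10 CPM in 1 of the samples compared; all 5 members passed that filter in each comparison, and since *MT1E* was chosen on the rise after transplantation these counts are descriptions. From pre- to post-transplant cyiPS-Cart, 3 members were higher (*MT1E*, *MT2*, *SLC30A1*), where 8.92% of all genes were, and *SLC39A14* was the 1 lower, where 18.5% were. Against cyAC, 1 member was higher in post-transplant cells (*MT1E*, with a background of 10.7%) and 2 were lower (*MT2* and *SLC39A14*, background 15.8%). From cyiPSC to the organoid, 2 were higher (*MT1E* and *SLC39A14*, background 16.5%) and 1 was lower (*SLC30A1*, background 37.4%). Between cyAC and cyFT, *SLC39A14* was the 1 member higher in cyAC (background 3.92%) and 0 were lower (background 12.2%). *MTF1* was not counted against cyAC because its log2 difference in CPM + 1 was -0.98. The median log2 ratio of the members was 1.65 from pre- to post-transplant cyiPS-Cart (-0.25 over all genes that passed), -0.98 against cyAC (-0.08 over all), 0.83 from cyiPSC to organoid (-0.61) and 0.22 between cyAC and cyFT (-0.19). The comparisons with post-transplant cells share that sample, and both that involve cyAC share cyAC.

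Scaling bore mostly on the step from iPS cells to organoid. With the trimmed mean of M values (TMM), which shifted log2 ratios of this step by 0.67, the metallothionein sum was 2.93-fold higher in the organoid in place of 1.84-fold (1.82 to 1.86), *MT2* and *MTF1* also passed 2-fold, at 2.26-fold and 2.95-fold, and *SLC30A1* no longer did, at 1.74-fold lower. The same factors shifted the other comparisons by 0.22, 0.12 and 0.18. TMM adds 1 shift to every gene of a comparison, and no member's log2 ratio was small enough for it to turn the sign.

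Of 23 other genes on a list of zinc exporters, importers and a sensor entry (*MTF2*, whose part in zinc sensing was not tested), 21 were listed in the matrices. From pre- to post-transplant cyiPS-Cart 14 of them passed the filter, 1 was higher and 2 were lower by 2-fold, where 8.92% and 18.5% of all genes were, and their median log2 ratio was -0.16 against -0.25 over all genes. The 1 higher was *SLC39A8* (ZIP8), at 5.96 CPM before and 35.8 CPM after transplantation, a 6.004-fold rise (4.99 to 7.27). Its level was 3.03 CPM in cyiPSC, 55.7 CPM in cyFT and 102 CPM in cyAC, where it was highest. The lower ones were *SLC30A7* (100.3 to 34.8 CPM) and *SLC30A5* (111 to 54.7 CPM), which load zinc into the secretory pathway. *SLC30A5* passed only narrowly, at a log2 difference of -1.003, and the TMM shift of 0.22 in this comparison brings it short of 2-fold. *SLC39A13* (ZIP13), known for its part in connective tissue, was at 96.1 CPM before and 151 CPM after transplantation, short of 2-fold.

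The importers *SLC39A8* and *SLC39A14* thus changed in opposite directions on transplantation, and both were highest in cyAC. From cyiPSC to organoid, 14 other zinc genes passed the filter, 6 were higher and 3 were lower, beside 16.5% and 37.4% of all genes. *MTF2*, at 277 CPM in cyiPSC and 38.4 CPM in the larger pre-transplant set, was 1 of the lower. Between post-transplant cells and cyAC 13 passed, 0 were higher (10.7% of all genes) and *SLC39A8* was the 1 lower (15.8%), at 2.86-fold. Between cyAC and cyFT 15 passed, 0 were higher (3.92% of all genes) and 1 was lower (12.2%), *SLC39A12*, which stood at 39.6 CPM in cyFT, where 5.63% of cells held a read, and at 1.94 CPM in cyAC.

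The genes of related pathways were counted over the same comparison, post-transplant over pre-transplant, in which 8.92% of all genes were higher and 18.5% lower. Of 9 copper genes that passed the filter 0 were higher and 1 was lower by 2-fold, counts too small to set apart from those shares. The lower one was the copper importer *SLC31A1*, from 269 to 78.0 CPM, while the chaperones *COX17* (18.5 to 36.9 CPM) and *ATOX1* (19.96 to 36.8 CPM) stayed short of it. Of 7 iron genes 2 were higher and 2 were lower, with ceruloplasmin, *CP*, at 3.94 and 15.2 CPM, the transferrin receptor *TFRC* at 103 and 261 CPM and *ACO1* at 50.5 and 22.0 CPM. None of these copper and iron genes differed by as much as *MT1E* or *MT2*. Since *MT1E* was chosen for its rise in this comparison, that order is a description and sets nothing apart.

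Among genes that answer to oxidative stress through NRF2, 0 of 8 were higher and 4 were lower after transplantation, beside 8.92% and 18.5% of all genes. The cystine importer *SLC7A11* was at 18.6 CPM before and 0.804 CPM after, *SRXN1*, which repairs oxidized peroxiredoxins, at 410 and 50.1 CPM, and thioredoxin reductase *TXNRD1* at 54.3 and 16.2 CPM. *HMOX1*, heme oxygenase, counted here with the iron genes, was at 268 and 295 CPM and at 1577 CPM in cyFT. At equal depth it was read in 45.1% of pre-transplant, 19.7% of post-transplant and 63.2% of cyFT cells, so after transplantation its reads lay in fewer cells.

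Among glucocorticoid-responsive genes, metallothioneins apart, 3 of 7 were higher and 1 was lower after transplantation, beside 8.92% and 18.5% of all genes. *PER1* was at 9.11 and 264 CPM, *DUSP1* at 326 and 1021 CPM and *TSC22D3*, which encodes GILZ, at 149 and 355 CPM. Others on the list did not rise, among them *NR3C1* at 135 and 107 CPM and *FKBP5*, below the filter, at 4.79 and 4.45 CPM. Between post-transplant cells and cyAC the list was mixed, with 4 of 9 genes higher and 3 lower in post-transplant cells (10.7% and 15.8% of all genes). *PER1* and *TSC22D3* were lower in cyAC, at 65.6 and 82.4 CPM, whereas *ERRFI1* was at 1179 CPM in cyAC and 114 CPM in post-transplant cells. The part of glucocorticoids and of oxidative stress in the metallothionein levels was not tested.

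Immediate-early genes, which are known to be induced during tissue digestion, were higher after transplantation. Of 6 stress genes that passed, immediate-early and heat shock, 4 were higher and 1 was lower (8.92% and 18.5% of all genes), with *FOS* at 623 and 5742 CPM, *EGR1* at 28.1 and 309 CPM and *FOSB* at 4.41 and 78.5 CPM, and the 6 listed genes together at 1119 and 7797 CPM. In cyAC they summed to 1469 CPM, most of it *FOS* at 754 CPM, while *FOSB* at 130 CPM and *EGR1* at 141 CPM stood above their pre-transplant levels. Across cells, r between *FOS* and the metallothionein sum was 0.21 in post-transplant cells, 0.06 in cyAC and 0.05 in cyFT. The part of digestion, and that of the fibroblast markers that were also higher after transplantation, in the metallothionein levels was not tested.

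The genes whose level followed the metallothionein sum most closely from cell to cell, by the mean of Pearson's r over the 4 samples of 320 cells among 2858 genes read in at least 25% of the cells of each, were *COL2A1* (mean r of 0.26), *SERPINA3* (0.24), *SDC4* (0.23), *SNORC* (0.22) and *STK38L* (0.22). The median over all these genes was 0.04 and the 99th percentile 0.16. *COL2A1* is type II collagen and *SNORC* a cartilage proteoglycan. Each of the 5 had its highest r in cyFT. There r with *COL2A1* was 0.53 and with *COL1A1* -0.52, against 0.22 and -0.18 in post-transplant cells, 0.21 and -0.09 in cyAC and 0.06 and -0.02 before transplantation. Spearman's rho with *COL2A1* was 0.49 in cyFT and 0.17 in cyAC but 0.07 in post-transplant cells and 0.02 before transplantation, so by rank the relation was weaker in the organoids. Reads per cell also followed the metallothionein sum, with r of 0.35 in cyFT, 0.21 in pre-transplant, 0.13 in post-transplant and 0.07 in cyAC cells.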

How the data were processed

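The authors assigned TAS-Seq cDNA reads to Ensembl transcripts of *Macaca_fascicularis*_6.0 with Bowtie2 and deposited read counts per gene and cell. Before depositing, they kept cells above the knee-plot inflection point, split pooled samples by hashtag and set counts taken for diffused RNA to 0 in strongly expressed genes, and for the smaller matrix they took 320 cells per sample. The submitters' processing notes name cutadapt 3.4, Bowtie2 2.4.2 and R 3.6.3. Such a correction would cut low counts of a gene, but the lowest count above 0 of every member was 1 in each sample. The hashtag libraries were left aside.

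Each cell was given its sample by the prefix of their names (0 columns were unmatched). Reads were summed per sample over cells and divided by all reads of the sample to give CPM. Sums have exact Poisson intervals, shares exact binomial (Clopper-Pearson) intervals, and ratios exact conditional intervals, at 95%. For shares at equal depth reads of a cell were drawn down to 1 depth, set at the 10th percentile of the sample with the fewest reads, 30967 reads in the larger and 12191 in the smaller matrix, and shallower cells were left out. Where no cell had a read, 3 counts set the upper limit. The median cell held 143075 reads in cyiPSC, 59249 and 58413.5 in the pre-transplant sets, 80335.5 in post-transplant cyiPS-Cart, 29699 in cyAC and 27499.5 in cyFT.

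Fold counts used log2(CPM + 1) with a threshold of 1 and at least 10 CPM in either sample. Classes of cells were cut on 1 read, and marker classes on 3 genes. Every member is named, together with the 5 genes most alike over cells and the 3 genes with the largest absolute log2 ratio of the zinc exporter, zinc importer, copper, iron, NRF2, glucocorticoid and stress lists. Genes named beyond this rule were chosen after their values were seen (*SLC39A12*, *HMOX1*, *ERRFI1*, *MTF2*, *NR3C1*, *FKBP5*). The members and lists were chosen with earlier results of these data known, and all gene symbols are those of the matrices, of which 3 of the 5 members were found in a RefSeq table of another assembly.

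The ratios were tested on counts drawn for 12110 genes at the depths of cyAC and cyFT: 200 of 200 changed genes were recovered past 2-fold with the right direction, 0 of 7240 unchanged ones passed, and 94.9% of the intervals held the true ratio. All cells of a simulated sample shared 1 profile, without repeated reads, and the changes were set well beyond 2-fold. The outcome therefore checks the arithmetic only, not the intervals or the 2-fold rule under the spread of the real cells. Scrublet (scanpy 1.11.5) marked 0.232% of the 6027 cells of the larger matrix, too few to count as a working call, and 8, 7, 2 and 2 cells of the pre-transplant, post-transplant, cyAC and cyFT samples of 320. Marked cells were kept. TMM factors came from edgeR 4.0.16 in R 4.3.3, and other steps used Python 3.11.15, numpy 2.4.6 and scipy 1.17.1. The alternatives were a mean over cells, totals without mitochondrial genes, TMM, thinning, a stricter filter on cells, doublets left out, the top 1% of cells left out, other pseudocounts and filters, and other minimum reads. Leaving out cells with immune markers and keeping *COL2A1*-alone cells were chosen after seeing the data.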

Additional observations from a re-analysis of the deposited data

How the results depend on the processing

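The rise of the metallothionein sum after transplantation (log2 ratio 3.91) is a description, since *MT1E* was chosen for its rise here. It was 3.96 as a mean over cells, 3.85 without mitochondrial genes, 4.13 with TMM, 3.80 without the top 1% of cells, 3.97 in *COL2A1*-alone cells and 3.83 against all pre-transplant cells of the larger matrix. From cyiPSC to organoid (0.88) it was 0.83 as a mean over cells, 0.85 without mitochondrial genes, 1.55 with TMM, 0.90 thinned, 0.91 under the filter on cells and 1.02 without the top 1%. Post-transplant over cyAC (-0.25) gave -0.19 as a mean over cells, -0.27 both without mitochondrial genes and under the filter on cells, and -0.13 with TMM. cyAC over cyFT (0.20) gave 0.55 as a mean over cells, 0.38 with TMM, 0.47 thinned, 0.17 under the filter on cells, 0.32 without the top 1%, 0.12 without cells with immune markers and -0.74 in *COL2A1*-alone cells, where the direction turned. The counts of members past 2-fold stayed within 1.5 times under other pseudocounts and filters. Of 30 shares of cells with a read, 0 stayed within their counting interval at a minimum of 10 reads, 8 at 2 reads and 6 after thinning, so a share holds only for its depth. No paired analysis was possible because each condition is 1 sample. At these depths most cells of the joint samples had no *MTF1* or *SLC30A1* read.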
